A study of Mus musculus with 5 samples.

Results

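The cells described here are the MHC class II dendritic cells of the embryonic mouse lung, 99 of 19491 barcodes kept from 5 single-cell RNA libraries. A kept barcode had at least 500 genes and at most 15% of its unique molecular identifiers (UMIs, one per captured transcript molecule) from mitochondrial genes. A barcode was taken as a dendritic cell when it held at least 1 UMI of 2 or more of H2-Aa, H2-Ab1 and H2-Eb1, and at least 1 UMI of Flt3, Cd209a, Clec9a, Xcr1 or Ccr7. It also had to hold 0 UMIs of Cd79a (B cells), C1qa (macrophages), Epcam (epithelium), Cdh5 (endothelium) and Pdgfra (mesenchyme). These 13 genes chose the cells, so their levels are given as a description. The lungs came from embryos at E18.5, were dissociated whole with collagenase and DNase I, treated with a red blood cell lysis buffer, and loaded on a droplet system that captures the 3′ end of transcripts. There was 1 library per embryo, 2 from Zswim8+/- embryos (Het 1 and Het 2) and 3 from Zswim8-/- embryos (KO 1, KO 2 and KO 3). The Het embryos, which served as controls, carry 1 mutant Zswim8 allele themselves. The labels do not state the allele, and no treatment is stated beyond the dissociation. The libraries held 56608582 to 93708304 UMIs in all, and no batch or date is given.

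Dendritic cells take up antigen, cut it into peptides and show it to T cells. The conventional kind comes as type 1 cells, known for presenting captured antigen on MHC class I and for Xcr1 and Clec9a, and type 2 cells, known for Sirpa and, in many tissues, Cd209a. H2-Aa, H2-Ab1 and H2-Eb1 encode chains of the MHC class II molecules, Cd74 is the invariant chain that escorts them, H2-DMa, H2-DMb1 and H2-DMb2 load the peptide, H2-Oa and H2-Ob restrain that loading, and Ciita is the coactivator that switches the whole set on. Flt3 is the receptor for the growth factor of the lineage, and Ccr7 guides activated cells to lymph nodes. ZSWIM8 is the substrate receptor of a ubiquitin ligase that acts on Argonaute in microRNA decay directed by trigger transcripts.

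MHC class II genes are known for short promoter elements that they share, so promoters of 2 genes of the rule, H2-Aa and H2-Eb1, and of 3 others of the class are shown here. H2-Ab1 and Ciita were not matched. Each run is 56 bases from RefSeq (GRCm38.p6, chromosome 17), 5′ to 3′ on the gene's own strand, with GCAAC (letters of the X box) and GATTGG (letters of the Y box, bound by NF-Y) in capitals.
H2-Aa, chr17:34287857-34287912, minus strand: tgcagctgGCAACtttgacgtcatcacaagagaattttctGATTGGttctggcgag
H2-Eb1, chr17:34305767-34305822, plus strand: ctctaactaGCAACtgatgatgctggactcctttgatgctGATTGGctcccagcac
H2-Oa, chr17:34092295-34092350, plus strand: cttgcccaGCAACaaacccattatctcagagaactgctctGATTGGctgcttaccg
H2-Ob, chr17:34238807-34238862, plus strand: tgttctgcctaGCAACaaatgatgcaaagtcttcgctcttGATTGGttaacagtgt
H2-DMb1, chr17:34153089-34153144, plus strand: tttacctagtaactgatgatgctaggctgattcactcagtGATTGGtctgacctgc
In the first 4, GCAAC starts 29 to 32 bases before GATTGG, and H2-DMb1 held GATTGG without an exact GCAAC. Only exact letters were searched, so a variant of the X box would not be counted. GATTGG was found in a promoter of 7 of 7 MHC class II genes matched (H2-Aa, H2-Eb1, H2-DMa, H2-DMb1, H2-DMb2, H2-Oa and H2-Ob). These genes have 8 promoters, and 1 of the 2 of H2-DMa lacked it. Of 32851 promoters of the same 300 bases searched on both strands, 16.1% held it, which counts promoters and not genes. The pair within 40 bases was found in 4 of the 7 genes and in 0.566% of all promoters. A match in these letters is a description of the sequence, not a bound site.

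The MHC class II signal of the selected cells was far from the threshold in most of them. The 3 class II genes summed to 2 to 517 UMIs per cell with a median of 198, and 81 of the 99 cells held at least 100. All 3 genes were detected in 96 cells, and Cd74, which the rule did not use, in 98. The median per cell was 205 UMIs in Het 1, 232.5 in Het 2, 177 in KO 1, 150.5 in KO 2 and 191 in KO 3. Both Het medians lay above the KO-labelled ones, while the ranges over single cells overlapped between all libraries. Just inside the threshold stood 4 cells with 2 to 4 class II UMIs, all in KO 3, of which 1 held no Cd74 UMI and only Ccr7 among the dendritic genes. Just outside were 5 barcodes with a single class II gene, with a median of 1 class II UMI where any were found, and 92 with the class II genes but none of the 5 dendritic genes.

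**Figure D1:**
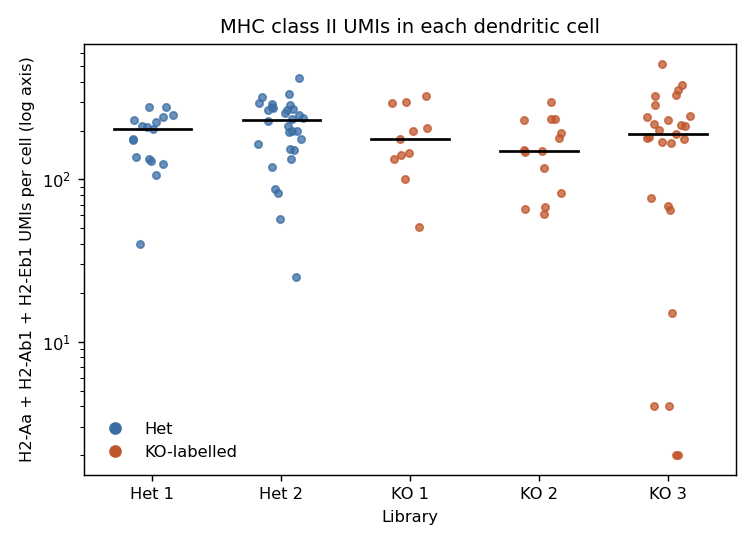
UMIs of H2-Aa, H2-Ab1 and H2-Eb1 summed in each dendritic cell (log axis) by library, with a bar at the median and blue for Het, orange for KO-labelled libraries. Most cells lie above 100 UMIs in every library, the medians run from 150.5 to 232.5, and the 4 cells under 5 UMIs are all in KO 3.

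The dendritic genes were sparser than the class II genes. Flt3 was detected in 64 cells, Cd209a in 38, Clec9a in 36, Ccr7 in 21 and Xcr1 in 10, and 55 cells held at least 2 of these 5 genes. For 17 cells the choice rested on 1 UMI. Depth was alike across the libraries, with a median of 12219 to 14704.5 UMIs per dendritic cell.

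Genes outside the rule set these cells apart from the 7881 other barcodes with a Ptprc UMI (the leukocyte marker CD45) that were neither MHC class II macrophages nor MHC class II B cells. Levels in this comparison are counts per 1000000 UMIs of the pooled cells (CPM), and the comparison is a description, since the class was chosen on expression. Cd74 stood at 8922 CPM against 121, H2-DMb1 at 464 against 15.5, and Ciita was detected in 44.4% of dendritic cells against 0.23% of the others. The median depths of the other barcodes, 12250.5 to 13808 UMIs by library, were close to those of the dendritic cells. Zbtb46, a transcription factor of conventional dendritic cells, was detected in 18.2% against 1.17%, and Itgax, which encodes CD11c, in 45.5% against 7.40%. Csf1r, the receptor for the macrophage growth factor, went the other way, in 40.4% against 78.3%.

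Among genes with at least 100 CPM in dendritic cells and outside the rule, Ccl17 had the largest ratio to the other Ptprc barcodes, 222. Ccl17 encodes a chemokine that draws CCR4-bearing T cells. It was detected in 31 cells and ran from 45.6 CPM in KO 3 to 462 in KO 1. Slamf7, a receptor of the SLAM family, followed at a ratio of 100, and was found in 71 cells. Cd74, H2-DMb1, Grasp, Cadm1, Tnni2, Ifi205, Rtl8a, Rtl8b, Clec10a, Cst3, H2-DMb2, Tent5c and Tnfsf9 completed the first 15. Tnni2, a troponin of fast muscle, was spread evenly, with 339 to 452 CPM in every library and UMIs in 88 of the 99 cells. Cadm1, an adhesion molecule of type 1 cells, was at 56.5 and 155 CPM in Het 1 and Het 2, 90.6 in KO 2 and 118 in KO 3, but had 0 UMIs in the 11 cells of KO 1. Rtl8a, an X-linked gene derived from a retrotransposon, was likewise low in KO 1 at 19.2 CPM against 127 to 289 in the other 4 libraries.

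Of 2 neighbouring classes, the 32 MHC class II macrophages (with C1qa) held less class II RNA, with H2-Aa at 2307 CPM against 4762 in dendritic cells, and the 38 MHC class II B cells (with Cd79a) held 1048. Csf1r was at 487 CPM in the macrophages, 61.6 in the dendritic cells and 0 in the B cells. Markers of other lineages were partly present. Of 12 T cell, NK cell and innate lymphoid markers 7 had 0 UMIs in all 99 dendritic cells, among them Cd3e, Cd3d, Cd3g and Ncr1, and their list summed to 21.3 to 98.3 CPM by library. Of 10 B cell markers 5 were at 0, among them Pax5 and Ebf1, but the list summed to 94.1 to 128 CPM by library. That was 1.18 to 1.82 UMIs per dendritic cell against 0.00831 to 0.0196 per red-cell barcode. Of 8 basophil and mast cell markers 5 were at 0, among them Mcpt8 and Cpa3. That list held 0.214 to 1.03 UMIs per dendritic cell by library. Monocyte and macrophage markers were more common. The monocyte list summed to 986 to 1986 CPM, with 3 or more of its 10 genes in 62 cells and Fcnb and Ace at 0, and the macrophage list to 336 to 506 CPM, with 3 or more of its 12 genes in 37 cells and Ms4a7 alone at 0. The neutrophil list summed to 57.7 to 155 CPM, with Camp and Elane at 0. Mesenchymal markers stood at 1.36 to 3.07 UMIs per dendritic cell by library against 0.418 to 0.846 per red-cell barcode, with Tcf21, Tagln and Pdgfrb at 0, and epithelial markers at 3.21 to 8.82 against 3.24 to 7.47, with none at 0. The part of these transcripts in the results was not tested. No dendritic cell was among the barcodes removed by doublet score, and no cell barcode of a dendritic cell was shared with a dendritic cell of another library, while 34 kept barcodes were shared over all pairs of libraries.

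The dendritic cells fell into 2 kinds by their type markers. A Clec9a or Xcr1 UMI without Cd209a was found in 38 cells, a Cd209a UMI without Clec9a or Xcr1 in 36, both in 2 and neither in 23, of which 22 held Flt3. Clec9a is a receptor for dead cells and Xcr1 a chemokine receptor, both of type 1 cells. Every gene of a list of type 1 genes found in the files, 15 of 15, was higher in the Clec9a or Xcr1 cells, and of 13 type 2 genes with at least 20 UMIs, 12 were higher in the Cd209a cells. Klf4, a transcription factor, was the exception at 409 CPM in the Clec9a or Xcr1 cells against 288. The lists do not contain the 3 markers, but the cells were split on their own expression, so this contrast has no test.

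Irf8 encodes the transcription factor of type 1 cells. It was at 871 CPM in the Clec9a or Xcr1 cells, where all 38 held it, against 8.53 CPM in the Cd209a cells, where 4 of 36 did. By library it ran from 787 to 961 CPM in the first, over the 4 libraries that held such cells, and from 0 to 21.4 in the second. Naaa, a lysosomal amidase, was at 881 against 213 CPM, Wdfy4, needed for cross-presentation, at 384 against 139, and Itgae, the integrin CD103, at 186 against 10.7. Tlr3, the receptor for double-stranded RNA, was at 106 CPM in the Clec9a or Xcr1 cells and had 0 UMIs in the Cd209a cells, as did Gcsam, Sept3 and Snx22.

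The type 2 genes showed the mirror image. Clec10a and Mgl2, a pair of lectins, were at 309 and 218 CPM in the Cd209a cells and had 0 UMIs in the Clec9a or Xcr1 cells. Irf4, the transcription factor of type 2 cells, was at 102 against 1.64 CPM, Zeb2, a repressor that opposes the type 1 fate, at 281 against 3.27, and Sirpa, the receptor for CD47, at 166 against 4.905. Chemokine genes divided as well. Ccl4 and Cxcl16 were higher in the Clec9a or Xcr1 cells at 2806 and 214 CPM, against 800 and 81.0 in the Cd209a cells. Ccl9 and the receptor gene Ccr1 were at 307 and 179 CPM in the Cd209a cells, against 19.6 and 8.17.

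The antigen processing genes did not all follow one side. H2-DMb1 was at 577 CPM in the Clec9a or Xcr1 cells against 384 in the Cd209a cells, while H2-DMb2 was at 47.4 against 179. Cst3, which encodes the protease inhibitor cystatin C, was at 24329 against 9282 CPM, and Ctss, a protease that cuts the invariant chain, at 327 against 682. Of 14 maturation genes with at least 20 UMIs, 12 were higher in the Cd209a cells, among them Nfkbia at 1004 against 141 CPM and Socs3 at 384 against 149. Cd83 and Cd86, surface molecules of activated cells, were the 2 that were not, at 659 against 584 and 122.6 against 98.1 CPM. Ccr7 UMIs were found in 13 of the 36 Cd209a cells and 1 of the 38 Clec9a or Xcr1 cells. Fscn1, which shapes the dendrites of fully matured cells, had 0 UMIs in both classes, as did Il4i1.

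**Figure D2:**
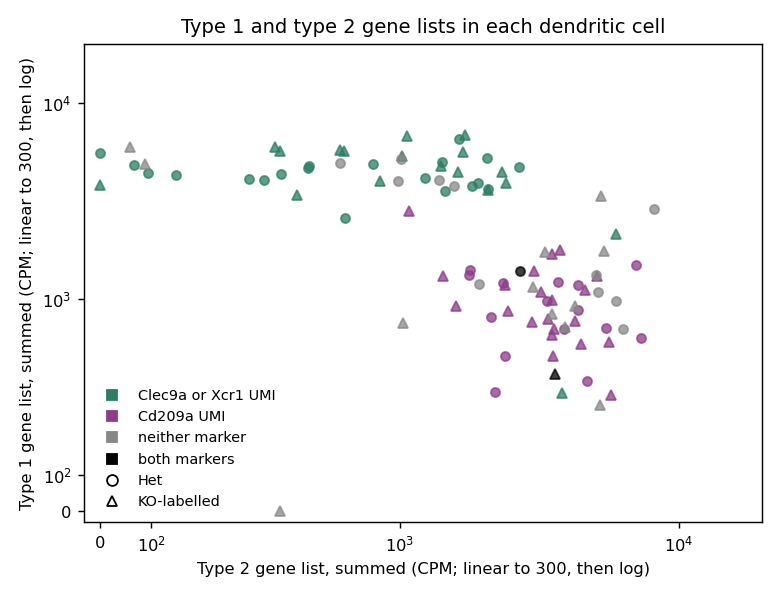
Summed CPM of the type 1 gene list (vertical) against that of the type 2 gene list (horizontal) in each of the 99 dendritic cells, both axes linear to 300 and logarithmic above, coloured by marker class, with circles for Het and triangles for KO-labelled libraries. The Clec9a or Xcr1 cells lie at the upper left in 36 of 38 cases, the Cd209a cells at the lower right in 35 of 36.

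Cell by cell, the type 1 list exceeded the type 2 list in 36 of the 38 Clec9a or Xcr1 cells, in 1 of the 36 Cd209a cells, in 0 of the 2 with both markers and in 7 of the 23 with neither. The median list levels of the cells with neither marker, 1336 CPM for type 1 and 3312 for type 2, were nearer to those of the Cd209a cells (906 and 3507) than to those of the Clec9a or Xcr1 cells (4472 and 1037). A single cell stood apart. It came from Het 2, and held 10 UMIs of Siglech, 12 of Klk1, 10 of Cox6a2 and 8 of Ly6d, genes of plasmacytoid dendritic cells, with 44 of Bst2, 25 of the class II genes and 3 of Flt3. Of 6 plasmacytoid genes (those 4, Ccr9 and Pacsin1), 89 cells held none, 9 held 1 and this cell held 5. It was singled out after its values were seen.

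The targeted gene was measured before the genotypes were compared. Zswim8 (chromosome 14, 20707552 to 20723619, plus strand, GRCm38) stood at 36.9 and 38.5 CPM over all kept barcodes of Het 1 and Het 2, and at 38.7, 39.2 and 40.9 in KO 1, KO 2 and KO 3. The level in KO-labelled libraries was therefore no lower. The allele is not stated, and a 3′ tag outside the deleted part says nothing of the deletion, so these values are no check of the genotypes and the libraries are called KO-labelled. In the dendritic cells Zswim8 was sparse, with 17 UMIs in 16 of 99 cells, 12.03 CPM pooled against 30.5 CPM in the other Ptprc barcodes. By library it was at 28.2 and 6.82 CPM in Het 1 and Het 2, from 6 and 3 UMIs, and at 12.8, 10.7 and 9.59 CPM in the KO-labelled libraries, from 2, 2 and 4 UMIs. The Het and KO-labelled values overlapped, and the gene was too low to be tested in these cells. KO 1 and KO 2 came from female embryos and the other 3 libraries from male embryos, so sex is partly confounded with genotype.

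The number of dendritic cells was compared first. They made up 0.353% of the kept barcodes in Het 1 (17 of 4820, 95% exact binomial interval 0.206 to 0.564), 0.714% in Het 2 (30 of 4204), 0.352% in KO 1 (11 of 3129), 0.421% in KO 2 (14 of 3324) and 0.673% in KO 3 (27 of 4014). Het 1 and KO 1 were the lowest and Het 2 and KO 3 the highest, and the groups overlapped. The Het mean was 0.533% ± 0.255 (SD, n = 2) and the KO-labelled mean 0.482% ± 0.169 (SD, n = 3), a difference of -0.0514 percentage points with a two-sided exact permutation p of 0.7, where 2 against 3 libraries cannot go below 0.1. The difference was 0.129 without Het 2, 0.0138 without KO 1 and 0.0572 as a share of Ptprc barcodes, so its direction was not stable. The intervals cover counting error only.

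**Figure D3:**
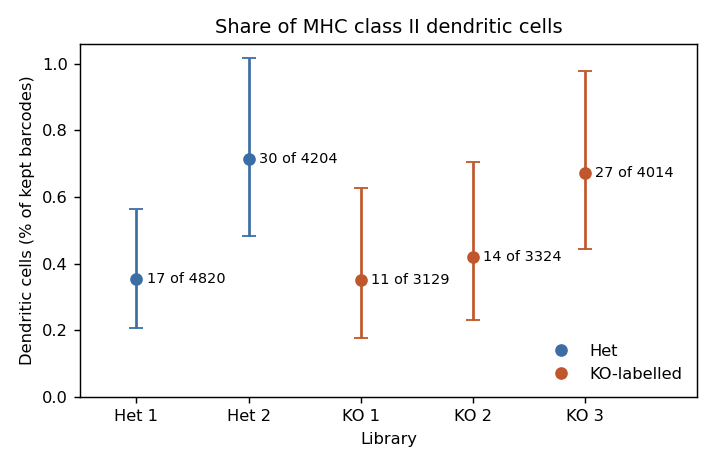
Dendritic cells as a percent of kept barcodes in each library, with 95% exact binomial intervals and the number of cells beside each point, blue for Het and orange for KO-labelled libraries. The 2 Het libraries, at 0.353% and 0.714%, enclose KO 2 and KO 3 and lie level with KO 1 at the low end.

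The genes required at 0 UMIs removed cells unevenly. Before that step the rule held 54, 47, 17, 22 and 37 barcodes in Het 1, Het 2, KO 1, KO 2 and KO 3. Cd79a took out 34 of the 177, of which 21 in Het 1, and Epcam 30. Without that step the share was 1.12% in each Het library and 0.543%, 0.662% and 0.922% in the KO-labelled libraries, a difference of -0.410 percentage points (exact permutation p = 0.2). The groups did not overlap on this count, which includes barcodes with B cell and epithelial RNA. The MHC class II B cells themselves numbered 21 and 10 in the Het libraries and 1, 2 and 4 in the KO-labelled libraries.

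The mix of type 1 and type 2 cells differed widely between libraries of the same genotype. Clec9a or Xcr1 cells numbered 3 of 17 in Het 1, 17 of 30 in Het 2, 0 of 11 in KO 1, 7 of 14 in KO 2 and 11 of 27 in KO 3. Cd209a cells numbered 10, 5, 8, 6 and 7 in the same order. Het 2 was rich in type 1 cells, and in KO 1 no cell carried a Clec9a UMI. By the 2 gene lists, the type 1 list was the higher one in 29.4% and 66.7% of the cells of Het 1 and Het 2, and in 0%, 42.9% and 48.1% of those of KO 1, KO 2 and KO 3.

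**Figure D4:**
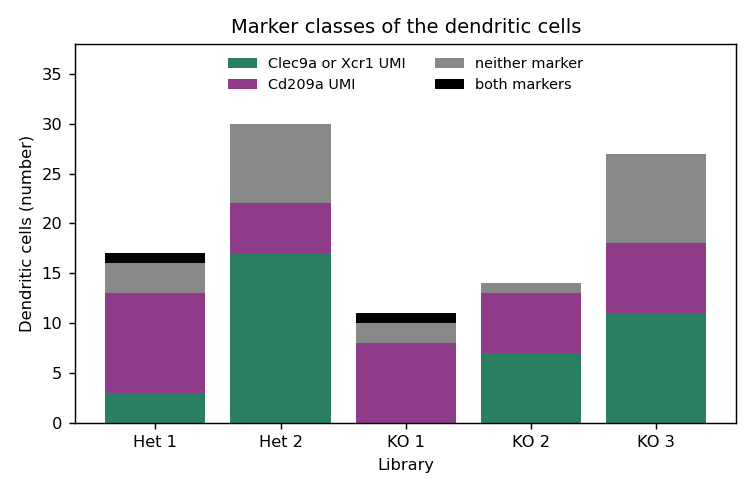
Number of dendritic cells of each library by marker class, stacked, for a Clec9a or Xcr1 UMI, a Cd209a UMI, neither and both. Clec9a or Xcr1 cells number 17 in Het 2 and 0 in KO 1, and both genotypes hold libraries with few and with many of them.

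Because a share of cells with a UMI depends on depth, each cell was also reduced at random to 3000 UMIs, which left out 1 cell of KO 3, and the share was averaged over 200 such draws. For Cd209a the Het mean was then 25.9% ± 19.6 (SD, n = 2) and the KO-labelled mean 27.6% ± 14.9 (SD, n = 3), and for Clec9a or Xcr1 they were 15.1% ± 9.01 and 13.7% ± 10.1. At full depth the means were 40.7% and 50.2% for Cd209a and 40.1% and 33.3% for Clec9a or Xcr1. Exact permutation p-values were 1 and 0.8, and 1 each after adjustment over 4 shares. Without Het 2 or without KO 1 both differences changed sign, from 1.69 to -12.1 and -6.80 percentage points for Cd209a and from -1.45 to 4.92 and 4.36 for Clec9a or Xcr1. Ccr7 was found in 10.96% ± 6.50 and 11.2% ± 9.37 (exact permutation p = 0.9), where the difference of 0.249 became -4.35 without Het 2 and -5.15 without KO 1. At full depth Ccr7 stood at 21.4% and 29.0%.

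Cell division was the one of the 4 shares with a steady direction. Cells with UMIs of at least 2 of 7 genes of the S, G2 and M phases (Mki67, Top2a, Cdk1, Birc5, Tpx2, Ube2c and Cenpf) made up 8.88% and 14.7% in Het 1 and Het 2, and 17.5%, 12.1% and 31.0% in KO 1, KO 2 and KO 3, at 3000 UMIs per cell. KO 2 fell between the Het libraries. The difference of 8.42 percentage points had an exact permutation p of 0.4, adjusted 1, and ran from 3.02 to 12.5 with each library left out in turn. At full depth the shares were 23.5%, 23.3%, 27.3%, 28.6% and 40.7%.

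Gene levels were compared on UMIs summed over the dendritic cells of each library, 155879 to 439822 UMIs per sum, with edgeR's quasi-likelihood test. Of 2891 genes tested, 0 passed a Benjamini-Hochberg adjusted p of 0.05 (0.0%), where 113 had an unadjusted p under 0.05. DESeq2 also gave 0, with 34 at an unadjusted p under 0.05. The lowest adjusted p was 0.0825, for Hbb-bt, a haemoglobin gene. The groups did not overlap, with KO-labelled libraries higher, for 246 genes (8.51%), and lower for 303 (10.5%). Each sum held 11 to 30 cells. Fewer cells carrying a gene and less RNA of it per cell cannot be told apart in such sums.

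Haemoglobin RNA differed between the sums. It made up 4.79% and 2.06% of the dendritic cell UMIs in Het 1 and Het 2, and 0.115%, 0.129% and 0.782% in KO 1, KO 2 and KO 3. Cells with over 1% haemoglobin UMIs numbered 5, 3, 0, 0 and 3, and the highest held 40.6%. In Het 1, 1 cell held 1640 of 5510 Hbb-bs UMIs. Red-cell barcodes numbered 6596 and 4195 in the Het libraries and 1865, 3972 and 3163 in the KO-labelled ones. Leaving out the 11 cells gave 0 genes called, with 99 at an unadjusted p under 0.05. The part of haemoglobin in other differences was otherwise not tested.

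Below, levels are CPM scaled by edgeR's TMM factors, and none of the genes named passed the test. They are the genes of lowest unadjusted p in each direction among those that kept the groups apart and averaged 30 CPM or more in one of them, with sex-linked, haemoglobin and other-lineage genes left out. Cxcl10, an interferon-induced chemokine that attracts T cells, stood at 11.2 and 2.58 CPM in Het 1 and Het 2 and at 70.1, 29.4 and 98.1 in KO 1, KO 2 and KO 3. On the log2 scale this was a fold change of 3.58 (standard error, SE, 0.84; edgeR adjusted p 0.726). Few cells carried it. The 10 UMIs of KO 1 and the 5 of KO 2 each came from 1 cell, and 26 of the 39 of KO 3 from 1 of 3 cells, while Het 1 and Het 2 held 2 and 1 UMIs.

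Ywhab, Stk38, Brd7 and Txn2 were the other genes with higher values in the KO-labelled libraries. Ywhab, a 14-3-3 adaptor protein, was at 129 and 188 CPM in Het and 350, 258 and 287 in KO-labelled libraries, and was found in 86 of the 99 cells. Txn2, the thioredoxin of mitochondria, was at 78.2 and 67.0 against 147, 135 and 118. Stk38, a kinase of the NDR family, and Brd7, a bromodomain subunit of a chromatin remodeller, had log2 fold changes of 1.14 (SE 0.36) and 1.11 (SE 0.36). In contrast to Cxcl10 these 4 genes were spread over 52 to 86 cells, and their adjusted p was 1.00 each. Txn2 was also higher in the other Ptprc barcodes, at 83.7 and 82.7 against 99.4, 101 and 102 CPM (not TMM-scaled). Brd7 was slightly higher there, at 93.3 and 92.9 against 98.6, 95.8 and 98.4. Stk38 was lower there, at 104 and 106 against 83.2, 88.3 and 90.4, and Ywhab overlapped.

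Among genes lower in the KO-labelled libraries, Sp100 had the lowest unadjusted p. It encodes an interferon-inducible component of PML nuclear bodies, and stood at 140 and 137 CPM in Het 1 and Het 2 and at 42.0, 29.4 and 62.9 in KO 1, KO 2 and KO 3 (log2 fold change -1.50, SE 0.34, edgeR adjusted p 0.678). The 2 Het values were nearly equal and far above the highest KO-labelled value. Slfn5, another interferon-inducible gene, was at 129 and 268 against 77.1, 11.7 and 80.5 CPM, and Ifi207, of the family of DNA sensors, had a log2 fold change of -1.25. Nr4a3, an immediate early nuclear receptor, was at 324 and 307 CPM in Het and 182, 170 and 108 in KO-labelled libraries. Zfp36, which speeds the decay of cytokine mRNAs, was at 944 and 652 against 470, 364 and 505. Sp100 was also lower in the other Ptprc barcodes, at 74.1 and 63.1 against 48.9, 41.3 and 40.6 CPM (not TMM-scaled). Slfn5 was lower there too, at 92.8 and 84.6 against 71.3, 39.0 and 39.0. Nr4a3 went the other way there, at 85.5 and 83.6 against 110, 93.7 and 108, and Zfp36 and Ifi207 overlapped.

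**Figure D5:**
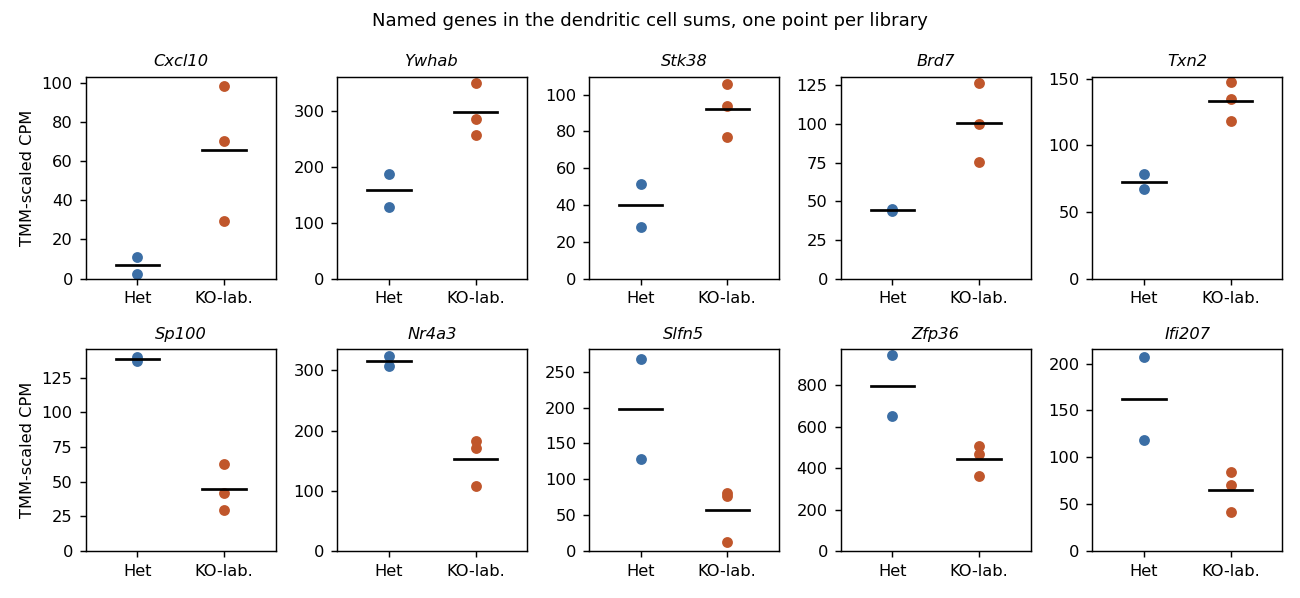
TMM-scaled CPM of the 10 named genes in the dendritic cell sums, 1 point per library and a bar at the group mean, each panel from 0 on its own linear scale. The groups do not overlap in any panel, by the choice of genes, and Sp100 lies at 137 to 140 in Het against 29.4 to 62.9 in KO-labelled libraries.

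The direction of each of these 10 genes held in all 158 refits under the alternatives, of which 8 took a gene past the threshold. Cxcl10 passed with no low-count filter, and Sp100, Slfn5, Ifi207 and Zfp36 passed in 1 to 3 refits each. The direction of genes chosen for not overlapping is fixed by that choice and is no sign of stability.

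The class II genes chose the cells, so their levels are a description. H2-Aa was at 6460.2 and 6128 CPM in Het 1 and Het 2 and 4870.45, 4428 and 4390.3 in KO 1, KO 2 and KO 3. Both Het values lay above the 3 KO-labelled ones for H2-Aa and H2-Ab1, as for 10.5% of all genes tested, and H2-Eb1 overlapped. Of 15 other genes of MHC class II presentation, 10 passed the low-count filter and 0 were called, 7 with a negative and 3 with a positive log2 fold change. Their median was -0.22, where that of all genes tested was 0.0038. It was -0.01 without Het 1 and -0.01 without KO 3, with 5 genes in each direction both times. Cd74 was at 12105 and 10323 CPM in Het and 11262, 10137 and 7797.4 in KO-labelled libraries, and Ciita at 72.7 and 69.6 against 21.0, 64.6 and 52.8. Cd74 overlapped between the groups and Ciita did not. With library size alone as the scale, the median of all genes was 0.12 and that of the presentation genes -0.11.

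Genes of MHC class I presentation gave a similar picture, with 12 of 14 tested, 0 called, 9 negative and a median of -0.20. H2-T23, which encodes the nonclassical molecule Qa-1, was at 156 and 168 CPM in Het and 49.1, 76.4 and 121 in KO-labelled libraries, and the groups did not overlap. B2m, the light chain of class I, was at 643 and 531 against 561, 393 and 636, and overlapped.

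The type 1 list had 12 of 15 genes tested, 0 called, 10 negative and a median of -0.42. The part of the mix of cells in this list was not tested. Irf8 was at 341, 678, 14.0, 587 and 538 CPM in Het 1, Het 2, KO 1, KO 2 and KO 3 and was lowest in KO 1, where Clec9a had 0 UMIs. The median was -0.07 without KO 1, 0.30 without Het 2 and -0.02 among Cd209a-bearing cells, where 3 genes remained. Wdfy4 was at 324 and 358 against 196, 229 and 264, without overlap. The type 2 list had 11 of 16 tested, 0 called, and a median of 0.06, which was 0.44 without Het 1 and -0.49 without Het 2. It includes Il1b, a cytokine of inflammation, at 1699 and 1111 in Het and 1941, 1316 and 1159 in KO-labelled libraries. Of the general dendritic genes 10 were tested and 0 called, with 5 in each direction.

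The maturation genes had 14 of 24 tested, 0 called, 11 negative and a median of -0.22. Cd83 was at 732 and 815 CPM in Het and 547, 640.2 and 533 in KO-labelled libraries, which did not overlap. Ccl17 was at 251 and 113 against 505, 70.5 and 47.8, so that KO 1 held the highest value and KO 3 the lowest. Without Het 1 the median of the list was 0.21. Of 16 chemokine and receptor genes 10 were tested and 0 called, with Ccl4, an inflammatory chemokine, at 2135 and 2815 against 736, 1627 and 1873 and no overlap. Ccl4 was the higher in Clec9a or Xcr1 cells, as given above, and KO 1, its lowest library, held none of these. Ccr2, the receptor that brings monocytes and their kin into tissue, was at 251 and 247 against 273, 317 and 282.

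Interferon response genes were mostly too low to test, with 4 of 23 passing the filter and 0 called. Of the 4, 1 had a positive and 3 a negative log2 fold change, with a median of -0.48. Without KO 2 the median was -0.15, with 2 genes in each direction. Cxcl10 was higher as given above, and Bst2, a surface protein that tethers virus particles, was at 184 and 348 CPM in Het and 119, 129 and 171 in KO-labelled libraries. The 44 Bst2 UMIs of the single cell with plasmacytoid genes were part of the Het 2 value. Ifitm3 was at 894 and 660.0 against 1002, 176 and 883, with KO 2 far below the other 4 libraries.

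The cell cycle list leaned the other way. Of 30 genes 17 were tested and 0 called, 16 with a positive log2 fold change and a median of 0.67. Mki67, a marker of dividing cells, was at 39.1 and 142 CPM in Het 1 and Het 2 and at 182, 58.7 and 277 in KO 1, KO 2 and KO 3, and Top2a, a topoisomerase of dividing cells, at 44.7 and 139 against 161, 64.6 and 350. KO 2 lay between the Het libraries for both genes. Ccnd1, the D-type cyclin that starts the cycle, was the only negative gene, at 369 and 325 against 245, 194 and 191 without overlap. The list's summed level was 2132 and 3531 CPM in Het and 3625, 3060 and 5270 in KO-labelled libraries (not TMM-scaled). The median stayed positive in the refits made, from 0.16 to 1.22, the lowest among Cd209a-bearing cells and with mixed cells left out and the highest without Het 2.

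Transcripts known to trigger microRNA decay, transcripts that host microRNAs, and subunits of the ligase had 7 of 13 tested and 0 called, with a median of 0.01. Oip5os1, the lncRNA also called Cyrano and a trigger of miR-7 decay, was at 55.9 and 59.3 CPM in Het and 49.1, 29.4 and 50.3 in KO-labelled libraries. Among 16 of 18 stress and immediate early genes tested, 0 were called and 10 were negative, with Fos at 816 and 840.5 against 357, 728 and 764. Of 15 innate sensing genes found, 8 were tested and 0 called, with 6 positive.

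To ask whether the genotype difference in dendritic cells departed from that in other leukocytes, a genotype by class term was fitted on the sums of dendritic cells and of the other Ptprc barcodes, with the library as a block. Of 12170 genes, 29 passed an edgeR adjusted p of 0.05 (0.238%), 10 with a higher and 19 with a lower term in dendritic cells, and 491 had an unadjusted p under 0.05. The lower terms include 4 haemoglobin genes, Hbb-bs, Hba-a1, Hbb-bt and Hba-a2, with terms from -3.08 to -2.29, and H2-Aa, which chose the cells. The dendritic sums, 155879 to 439822 UMIs, are far smaller than the others, 12285207 to 26101946 UMIs, and edgeR shares 1 spread per gene between them. With limma-voom and a weight for each class, 0 terms passed (652 at an unadjusted p under 0.05, lowest adjusted p 0.625). The 29 calls therefore depend on the fit used, and which difference between the fits accounts for this was not tested. Of the 29, 15 had a genotype difference past the threshold in the other Ptprc barcodes alone, where 881 of 13828 genes did, and 0 in the dendritic cells alone, where 27 could be tested.

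Wfdc17, a small secreted protein of myeloid cells, was at 475 and 537 TMM-scaled CPM in the other Ptprc barcodes of Het 1 and Het 2 and 123, 170 and 114 in those of the KO-labelled libraries. In dendritic cells it was at 73.4 and 70.3 against 111, 78.4 and 103, low in all 5. Its term was 2.42 (SE 0.33). Cxcl16, the ligand of CXCR6, had a term of -2.06 (SE 0.36), with 17.96 and 11.4 against 56.2, 27.7 and 25.3 in the other barcodes and 168 and 232 against 71.8, 174 and 98.3 in dendritic cells. Ahr, the receptor for aryl hydrocarbons, and Aif1, an actin-binding protein of myeloid cells, had terms of -1.57 and -1.66. In dendritic cells, Ahr was at 173 and 260 against 45.7, 84.0 and 192, and Aif1 at 330 and 432 against 91.4, 286 and 295. Both were lowest in KO 1, the library without Clec9a UMIs, and the part of the cell mix in these terms was not tested. In the other barcodes Ahr and Aif1 were higher in KO-labelled libraries (edgeR adjusted p 0.018 and 0.027). Ahr was at 22.1 and 20.3 against 30.5, 38.7 and 30.4 there, and Aif1 at 71.6 and 54.0 against 146, 118 and 95.7.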

How the data were processed

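The deposited tables hold raw UMI counts, whole numbers, for 32285 genes in each barcode. The authors made them with Cell Ranger 4.0.0 on mm10, per the file headers and the submitters' processing notes. Annotation, barcode filter and doublet treatment before deposit are not given in the sources used here.

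Barcodes were filtered and the dendritic cells chosen as described above. The members, gene lists and tests were chosen with earlier results of these data known. Counts were summed per library, since cells are not replicates, and fitted with edgeR 4.0.16 (quasi-likelihood, TMM, low-count filter, two-sided, Benjamini-Hochberg over all genes, threshold 0.05) in R 4.3.3. Alternatives used DESeq2 1.42.0 and limma 3.58.1. Shares were compared by exact permutation over the 5 libraries. For the shares and the dendritic cell sums, the p-values rest on the spread between libraries, 1 per embryo, so embryo and preparation are not told apart. For the genotype by class terms, where the library is a block, they rest on the spread of the class difference between libraries. Doublets were ranked with scanpy 1.11.5 and removed only as an alternative, at 0.8% per 1000 barcodes. Named genes were the 5 of lowest unadjusted p in each direction without overlap and with a mean of 30 CPM, since 0 were called, and, in the genotype by class terms, the 3 largest per direction. The 13 rule genes, sex-linked, haemoglobin, mitochondrial and other-lineage genes were left out, and list members were named by level, or after their values were seen (Ciita, H2-T23, Wdfy4, Ccl17, Mki67, Top2a, Fos, Oip5os1, Bst2 and the genes named between marker classes). Symbols shared by several genes (38) were kept apart by Ensembl ID. Coordinates are from GENCODE M21. The fits were tested on simulated data, which held no mix of cell types. At a log2 change of 1, 26.1% of changed genes were recovered in the dendritic cell sums and 7.83% in the genotype by class terms. At a log2 change of 2 it was 94.4% and 84.8%. All simulated libraries were drawn from the same pooled profile with edgeR's trended spread. A gene's own spread between libraries was therefore not simulated. In the real dendritic cell sums Hbb-bs, at a log2 fold change of -3.54, was not called (edgeR adjusted p 0.626). The recovered shares therefore set no bound on changes left uncalled.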

Additional observations from a re-analysis of the deposited data

Results flagged for a closer look

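The genotype by class terms were the results in which the difference between Het and KO-labelled libraries departed between dendritic cells and the other Ptprc barcodes by a test of that difference (edgeR, library as a block, adjusted p under 0.05). They numbered 29, which include 4 haemoglobin genes and the rule gene H2-Aa, and 0 passed in limma-voom with a weight per class. Terms are log2 values, and a negative one means a lower KO-labelled level in dendritic cells relative to the other barcodes.

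Among the genes named, positive terms were found for Apoc1 (10.8), Cxcl10 (3.41), Wfdc17 (2.42) and Ccl6 (1.14). Cxcl10 had 2 and 1 UMIs in the dendritic cells of Het 1 and Het 2. Its 10 UMIs in KO 1 and 5 in KO 2 each came from 1 cell, and 26 of 39 in KO 3 from 1 cell. Its term therefore rests on few cells. In the other barcodes Cxcl10 was at 51.2 and 53.6 CPM in Het and 85.9, 54.4 and 57.7 in KO-labelled libraries. Apoc1, an apolipoprotein of macrophages, had 0 UMIs in the dendritic cells of both Het libraries and 5, 1 and 13 in KO 1, KO 2 and KO 3, 11 of the 13 from 1 cell, so its fitted term is no measure of size. Ccl6, a myeloid chemokine, was at 142 and 211 CPM in dendritic cells of Het 1 and Het 2 and 150.1, 162 and 179 in those of the KO-labelled libraries, while the other barcodes had 1547 and 1595 against 576, 671 and 714.

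Negative terms were found for Cxcl16 (-2.06), Aif1 (-1.66), Ahr (-1.57), Ccnd1 (-1.40), Nr4a3 (-1.36), Marcksl1 (-1.15), Atf3 (-1.13), Marcks (-1.08), Cd83 (-0.98), Ccl4 (-0.90), Cd74 (-0.88) and Cst3 (-0.61). For Cd74 the other barcodes held 97.8 and 81.9 CPM in Het and 169, 134 and 118 in KO-labelled libraries, against 7619 to 11354 in the dendritic cells of the 5 libraries. For Ccl4, by contrast, the other barcodes were level, with 403 and 381 against 421, 396 and 368, and the dendritic cells had 2002 and 2843 against 685, 1551 and 1831. The lowest of these, KO 1, held no Clec9a or Xcr1 cells, in which Ccl4 was at 2806 CPM against 800 in Cd209a cells, and the part of this mix in the term was not tested. The other called terms, of genes not named here, are left out.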

How the results depend on the processing

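The Het to KO-labelled difference in the share of dendritic cells, -0.0514 percentage points, was 0.0572 over Ptprc barcodes and 0.0113 with haemoglobin-rich cells left out, and ran from -0.232 to 0.129 with each library left out in turn. Under the same omissions the difference ran from -12.1 to 15.5 for Cd209a, from -7.82 to 4.92 for Clec9a or Xcr1 and from -5.15 to 4.84 for Ccr7. Genes called in the dendritic cell sums, 0 by edgeR, numbered 17 with no low-count filter, 2 with embryo sex as a covariate (Hbb-bt and Hbb-bs), 1 with at least 10 UMIs in every library of a genotype and 1 among Cd209a-bearing cells (both Hbb-bt), 1 with mixed cells left out by a second rule (Cxcl2), and 0 to 6 with each library left out. The count was also 0 with DESeq2, library size alone, the stricter barcode filter, at least 5 class II UMIs, haemoglobin-rich cells left out and doublets left out. Under a replicate block 47 were called, 9 higher and 38 lower. The numbers pair only Het 1 with KO 1 and Het 2 with KO 2, and KO 3 stands alone. The deviations of these pairs correlated at 0.254 and 0.0702. With 2 Het libraries, the deviations of Het 1 and Het 2 mirror each other, so Het 2 with KO 1 stood at -0.254. The correlations therefore cannot decide whether the number marks a pair. The terms by class, 29, were 0 with limma-voom and class weights, and 20 to 33 with each library left out. The cause of these shifts was not tested. The haemoglobin, second mixed-cell and limma-voom settings were chosen after seeing the data. The second mixed-cell rule left out 5 cells of Het 1, 8 of Het 2, 1 of KO 1, 0 of KO 2 and 14 of the 27 of KO 3. The planned rule on mixed cells left 1 cell and was not run. Sums held 11 to 30 cells, and 17 of the 99 cells were chosen by 1 UMI of the dendritic genes.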
